A study of Drosophila melanogaster with 8 samples.

Results

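The nuclear oxidative phosphorylation genes of Drosophila melanogaster were taken as all nuclear protein-coding genes of the dm6 build whose symbol starts with ND-, UQCR-, ATPsyn, or COX followed by a digit. The rule found 80 genes among 13946. Of these, 40 encode subunits of complex I (ND-), 9 of complex III (UQCR-), 16 of complex IV (COX) and 15 of complex V (ATPsyn). Mitochondrially encoded genes were left out, and 3 of them matched the symbol rule. By symbol, 21 members are duplicates whose names end in L, or in L and a digit, such as COX4L beside COX4. The members lie on 3L (19 genes), 2L (16), 3R (16), 2R (15), X (12) and the small chromosome 4 (2).

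Open chromatin had been mapped in whole Drosophila embryos by ATAC-seq, an assay in which the transposase Tn5 cuts accessible DNA and tags it for sequencing. Wild-type (WT) and mutant embryos were each sampled at 1 to 1.5 h and at 2.5 to 3 h, with 2 libraries in each of the 4 groups. The study concerns IntS11, the subunit of the Integrator complex that cuts nascent RNA. The mutant is labelled as carrying mislocalized IntS11, but the titles of the WT libraries hold the same words, so assigning the mislocalization to the mutant alone is an inference. No label names the allele, the strain, the way the protein was mislocalized or any treatment, and none says whether the 2 replicates of a group were separate collections of embryos. All p-values therefore rest on the spread of these 8 libraries alone, and that spread may be technical.

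Oxidative phosphorylation takes place in the inner mitochondrial membrane. Complexes I, III and IV pass electrons from NADH to oxygen and pump protons, and complex V, the ATP synthase, uses the returning protons to make ATP. The subunits are encoded partly by mitochondrial DNA and mostly by nuclear genes, which are widely expressed. The egg is loaded with maternal mitochondria and maternal mRNA, and the embryo's own transcription starts during the first hours of development. Many of the duplicated subunit genes of Drosophila are known for expression in the testis.

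The measurement was a peak list for each library, with the position of each peak and no height, count or score. The sequencing depth is unknown, and a gene without a peak may still have been open below the caller's threshold. At 1 to 1.5 h each mutant list was shorter (15569 and 18706 peaks) than each WT list (23815 and 25201), while the 4 later lists held 18440 to 19995. The shortest peak ranged from 100 to 156 bp and was shortest in the early mutant libraries, and counts under common limits on length are given among the alternatives. Peaks stood at gene ends of 18 to 20 of 22 early zygotic genes in every library, and of 1 to 6 of 17 genes of differentiated tissues. A narrower peak in a bulk sample may come from fewer nuclei with an open site or from a shorter open stretch in each, which cannot be told apart.

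A member counted as called in a library when a peak came within 250 bp of either end of its annotated span, and its width was the summed length of those peaks. The gene table gives no strand, so the start of transcription could not be separated from the 3′ end. Of the 80 members, 67 were called in at least 1 library, 21 in all 8 (26.25%, against 22.1% of all protein-coding genes) and 13 in none (16.25% against 34.6%). Peaks lay at the lower-coordinate end only in 18 of the 67, at the higher end only in 20 and at both in 29. In 49 of the 67 a peak also lay at an end of another gene, so the open stretch cannot be assigned to the member alone. No peak was shared between members.

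**Figure D1:**
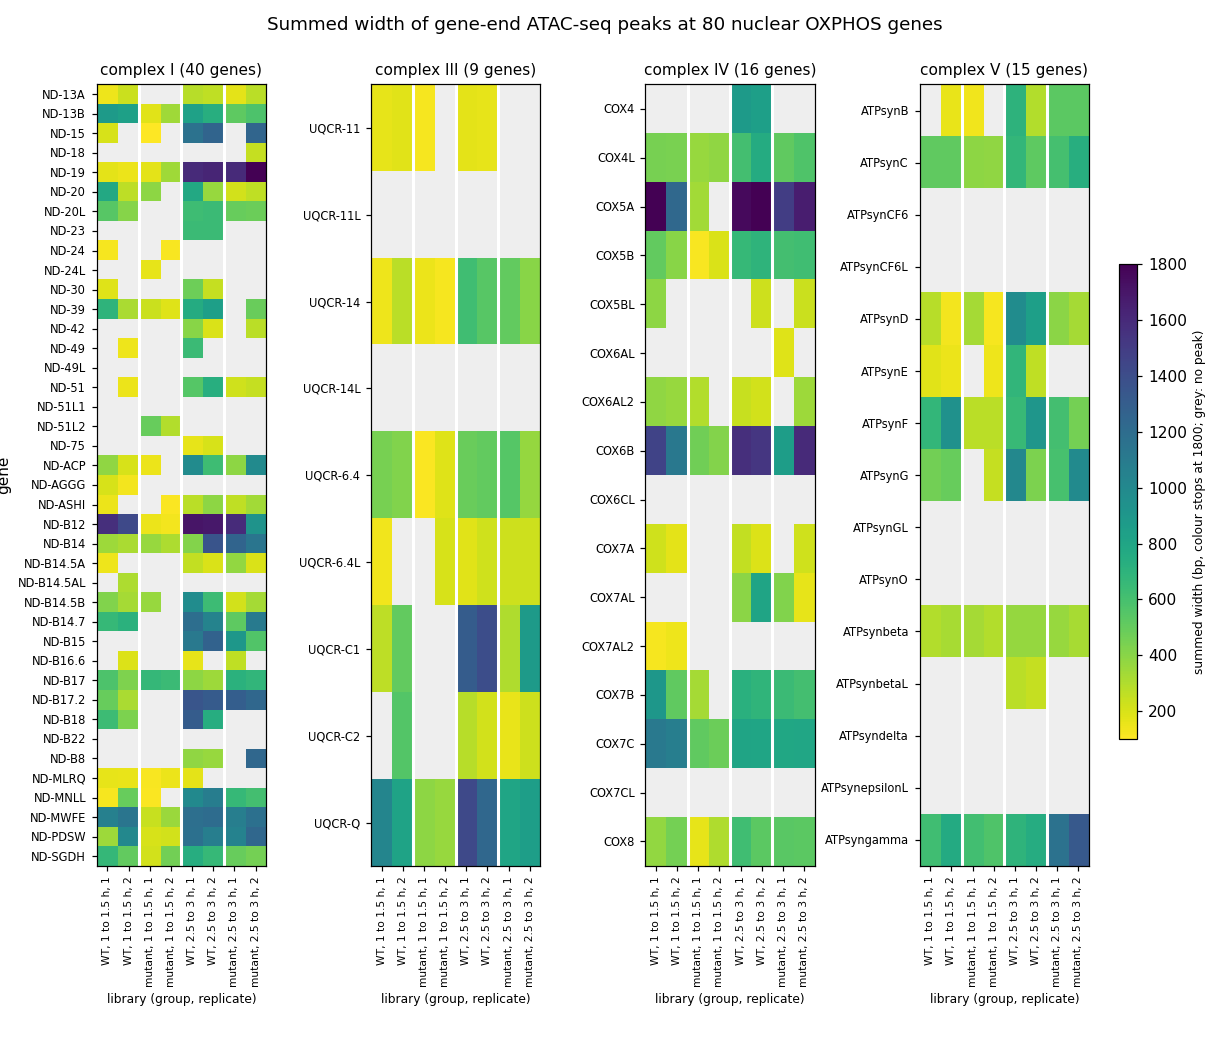
Summed width in bp of the peaks at the gene ends of each of the 80 members (vertical axis, by complex) in each of the 8 libraries (horizontal axis), with grey where no peak was called. The 21 members called in all 8 libraries form unbroken bands, and most of them are palest in the mutant libraries of 1 to 1.5 h.

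In the WT libraries of 1 to 1.5 h, 49 and 48 members were called (mean 48.5 ± 0.707, SD, n = 2). In the mutant libraries of the same window, 35 and 29 were called (mean 32.0 ± 4.24). At 2.5 to 3 h the numbers were 58 and 56 in WT (mean 57.0 ± 1.41) and 43 and 49 in the mutant (mean 46.0 ± 4.24). Mutant libraries were thus below both WT libraries in each window. As shares these were 60.6% in WT and 40.0% in the mutant at 1 to 1.5 h, and 71.25% and 57.5% at 2.5 to 3 h. Over all protein-coding genes the mean shares were 47.9% and 32.2%, then 48.9% and 44.6%. An exact two-sided permutation test cannot give a p below 0.333 for 2 against 2 libraries, nor below 0.0556 over both windows, so none of these differences could pass 0.05.

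Among called members the median summed width was 388 and 407.5 bp in WT at 1 to 1.5 h, and 240 and 297 bp in the mutant. At 2.5 to 3 h it was 668 and 652 bp in WT and 529 and 560 bp in the mutant. The mutant medians were the lower ones in both windows, as they were over all genes (444.5 against 245 bp, then 622.5 against 542 bp as group means).

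**Figure D2:**
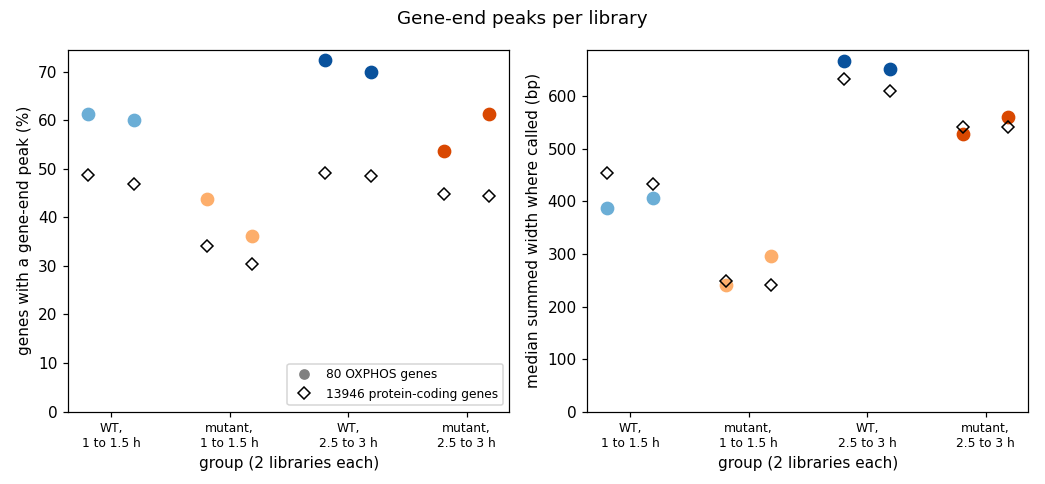
Left, the percentage of the 80 members (filled circles) and of 13946 protein-coding genes (open diamonds) with a gene-end peak in each library, and right, the median summed width in bp where called. The circles stand above the diamonds in all 8 libraries on the left, and both symbols are lower in the mutant than in WT of the same window.

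The first comparison asked how the mutant differed at 1 to 1.5 h, before most zygotic transcription. Fewer members were called there in the mutant and 18 had a smaller summed width, members without any mutant peak among them. The shares were near or below those of all genes. Of the 42 members called in both WT libraries, 9 were called in neither mutant library (21.4%). The same held for 23.2% of all genes called in both WT libraries. The 9 were 6 complex I genes (ND-B14.7, ND-B18, ND-B17.2, ND-13A, ND-AGGG and the duplicate ND-20L), the complex III core gene UQCR-C1, and the complex IV genes COX7A and COX7AL2. No complex V gene was among them. In the other direction, ND-51L2 was the 1 of 25 members without a WT peak that was called in both mutant libraries (1.45% over all genes), and 23 members were called in all 4 libraries.

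The widest WT peaks among the 9 were at ND-B14.7 (2R, 21025078 to 21026086), whose homologue NDUFA11 is an accessory subunit of the membrane arm. Its peaks measured 664 and 716 bp in WT, and no mutant peak reached the gene end. ND-20L (3R, 29515717 to 29516527), a duplicate of the ND-20 subunit that carries an iron-sulphur cluster, had 544 and 410 bp in WT and no gene-end peak in the mutant. In both cases the first mutant library still held a peak overlapping the WT ones, of 348 bp at ND-B14.7 and 150 bp at ND-20L, outside the window.

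UQCR-C1 (3R, 14890231 to 14892387) encodes a core protein of complex III. Its WT peaks at 1 to 1.5 h measured 268 and 509 bp, and no mutant peak overlapped them. It was the only member classed as lost at 1 to 1.5 h under each of 5 other definitions of a gene-end peak. ND-13A (141 and 233 bp in WT), ND-AGGG (201 and 132 bp), COX7A (224 and 167 bp) and COX7AL2 (124 and 140 bp) were also without any overlapping mutant peak, but their WT peaks were short. None of these 4 stayed lost under all of the stricter limits on peak length.

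The remaining members of the 9 kept open chromatin nearby. ND-B17.2 (2L, 2579201 to 2580172), an accessory complex I gene, lost its gene-end peaks of 494 and 317 bp, yet the regions that touch its ends held 1061 and 669 bp of mutant peaks against 1316 and 879 bp in WT. ND-B18 (X, 15063733 to 15064926), the NDUFB7 homologue of the membrane arm, went from 632 and 435 bp at the gene end to no peak, with 147 and 229 bp left in the surrounding regions. Counted by whole regions (all peaks of a library in the merged regions that touch a gene end, a definition chosen after the data were seen), 7 of 49 members were lost (14.3%, against 15.1% of all genes). They included 5 of the 9, namely COX7A, COX7AL2, ND-13A, ND-AGGG and UQCR-C1. None of the members without a WT peak was gained by whole regions (1.54% over all genes).

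**Figure D3:**
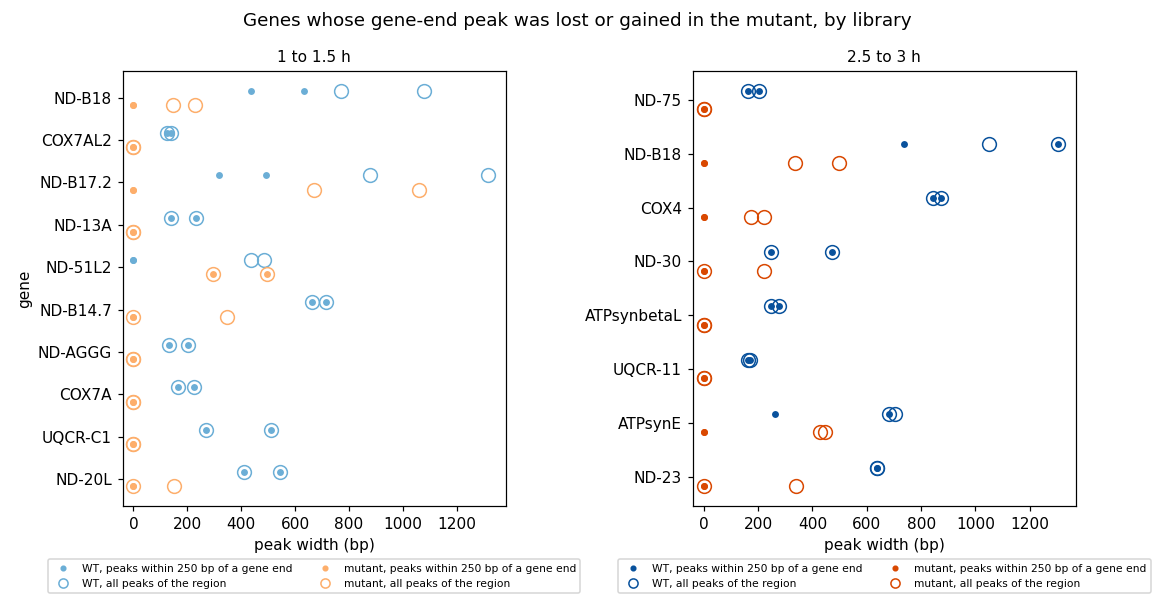
Peak width in bp (horizontal axis) in each WT and mutant library for the members whose gene-end peak was lost or gained at 1 to 1.5 h (left) or 2.5 to 3 h (right). Dots count only peaks within 250 bp of a gene end and circles count all peaks of the same regions, so a dot at 0 with a circle to its right, as for COX4 in the mutant, marks a peak that no longer reached the gene end.

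Narrowing was measured with limma on log2(summed width + 100 bp) over 7971 genes, of which 63 were members. At 1 to 1.5 h, 18 members were narrower in the mutant (Benjamini-Hochberg adjusted p under 0.05), where 30.9% of all genes were, and 1 was wider, where 1.27% were. Every lost member but COX7A is among the 18, so loss is counted there as narrowing. The wider one is ND-51L2, gained in the mutant. The median difference was -0.77 for the members and -0.88 for all genes. Since the genes called in all 8 libraries shifted by -0.78 as a whole, the fit was repeated with the libraries centred on them. Relative to that shift, 7 members were narrower and 8 wider, beside 15.2% and 12.4% of all genes. Of these 8, ND-75, ND-23, COX4 and ATPsynbetaL had no gene-end peak in any library of the window, so their centred values are the shift alone. Among the 55 tested members with a peak in at least 1 of the 4 libraries, a limit set after the data were seen, 7 were narrower and 4 wider, beside 16.7% and 9.34% of such genes. Libraries without a peak all enter at the same value and add no spread, so errors are too small for genes uncalled in a group. Among the 21 members called in all 8 libraries, 9 were narrower and none wider, against 44.2% and 0.939% of such genes.

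The complex I gene ND-B12 (2R, 21658078 to 21658777), the NDUFB3 homologue of the membrane arm, showed the strongest narrowing among members called everywhere. Its peaks covered 1569 and 1428 bp in WT and 149 and 127 bp in the mutant at 1 to 1.5 h. The genotypes did not overlap, and the difference was -2.75 ± 0.25 (SE, limma adjusted p = 0.0011). The WT peaks ran on to an end of the neighbouring gene Rae1. By whole regions the mutant held 563 and 531 bp and the difference was -1.30 (limma adjusted p = 0.0011). In the later window the mutant peaks measured 1590 and 929 bp, against 1702 and 1689 bp in WT.

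ND-MWFE (2R, 13158666 to 13160190), homologous to NDUFA1, went from 1059 and 1141 bp in WT to 240 and 357 bp in the mutant (-1.61 ± 0.17, limma adjusted p = 0.0019). ND-13B, homologous to NDUFA5, went from 875 and 831 to 177 and 343 bp (-1.44 ± 0.24, limma adjusted p = 0.0092). Both had mutant values below every WT value of the window.

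In complex III, UQCR-Q, the gene of a small subunit, measured 1026 and 817 bp in WT and 389 and 364 bp in the mutant (-1.09 ± 0.15, limma adjusted p = 0.0048). UQCR-6.4 measured 448 and 423 bp against 110 and 185 bp (-1.13 ± 0.23, limma adjusted p = 0.017).

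In complex IV, COX5A (3R, 11819359 to 11820299), a nuclear subunit that lies on the matrix side of the complex, had the largest fitted difference of all members at 1 to 1.5 h. Its peaks covered 2024 and 1224 bp in WT, 334 bp in the first mutant library and none in the second (-3.01 ± 0.72, limma adjusted p = 0.031). With each of the 8 libraries left out in turn, the difference ran from -4.07 to -1.95 and did not pass in 6 of the 8 fits. By whole regions the mutant still had 791 and 621 bp there, and the difference was -1.37 (limma adjusted p = 0.0032). Peaks at COX6B, COX5B and COX7C were also narrower, for example from 1116 and 1076 to 515 and 483 bp at COX7C (-0.998 ± 0.10, limma adjusted p = 0.0015).

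Of the 9 tested genes of complex V, ATPsynF was narrower (672 and 940 bp in WT, 278 and 276 bp in the mutant, -1.25 ± 0.24, limma adjusted p = 0.014), and the other 8 did not pass the test. ATPsynbeta (chromosome 4, 1031484 to 1034917), the catalytic subunit, had the narrowest mean width of the members called everywhere and the most even values. Its peaks measured 293 and 321 bp in WT and 327 and 299 bp in the mutant in the early window, where the genotypes overlapped. Later they measured 371 and 367 bp in WT and 364 and 324 bp in the mutant. By whole regions ATPsynE (-1.42, limma adjusted p = 0.0010) and ATPsynG (-1.44, limma adjusted p = 0.0086) were narrower as well, and the median over the 9 was -0.998, beside -0.91 for complex I, -0.92 for complex III and -1.14 for complex IV. These medians were not tested against each other.

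Of the 23 members called in all 4 libraries of 1 to 1.5 h, 17 had both mutant widths below both WT widths, as 75.7% of all such genes did. The 2 with wider peaks in both mutant libraries were ND-19 and ND-B17 (4.19% over all genes). At ND-19 the genotypes barely separated, with 168 and 149 bp in WT and 169 and 343 bp in the mutant. By whole regions its WT values were 358 and 149 bp and overlapped those of the mutant. By whole regions 24 members were narrower and none wider, beside 39.7% and 1.22% of genes. Of the 18 narrower members, ND-B17.2 (limma adjusted p = 0.37) and ND-B14.7 (limma adjusted p = 0.092) did not pass by whole regions. The number of lost members was 17 instead of 9 without the first mutant library of this window and 14 without the first WT library. Leaving out a library of a window loosens the rule for loss at every gene, and no share over all genes is set beside such counts. Without the second mutant library, 2 members were gained and none was wider.

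The second comparison asked the same at 2.5 to 3 h, when zygotic genes are transcribed. Here 8 members lost their gene-end peak in the mutant. They were 8 of the 55 called in both WT libraries (14.5%), where 8.51% of all genes were lost, and none of 21 was gained (3.39% over all genes). Of the 8, 4 belong to complex I (ND-75, ND-30, ND-23 and ND-B18), 1 to complex III (UQCR-11), 1 to complex IV (COX4) and 2 to complex V (ATPsynE and the duplicate ATPsynbetaL). Another 41 members were called in all 4 libraries. By whole regions the loss was 3 of 56 (5.36%, against 5.34% of all genes), and 1 member, ND-51L2, was gained (3.95% over all genes). The share lost was thus above the background by gene-end calls and at the background by whole regions.

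The core complex I genes among them encode iron-sulphur or core subunits of the arm that takes up electrons. ND-75 (X, 8248651 to 8251687), homologous to NDUFS1, had peaks of 162 and 205 bp in the WT libraries of 2.5 to 3 h and none in the other 6 libraries. ND-30 (3L, 3158485 to 3159578), homologous to NDUFS3, had 472 and 247 bp in WT and no gene-end peak in the mutant, with a peak of 223 bp overlapping the WT ones in the first mutant library. ND-23 (3R, 15836048 to 15837117), homologous to NDUFS8, had 639 bp in each WT library. Its only overlapping mutant peak, of 338 bp in the second library, lay inside the gene 344 to 681 bp from the lower end and outside both windows.

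ND-B18 was the only member lost in both windows. Its later gene-end peaks covered 1304 and 738 bp in WT, on both sides of its lower end and towards the neighbouring gene hiw. In the mutant a peak of 335 bp in the first library and 319 bp in the second remained on the hiw side, 689 bp or more from the gene end, and the second library also held 178 bp inside the gene. The difference in gene-end width was -2.65 ± 0.29 at 1 to 1.5 h (limma adjusted p = 0.0020) and -3.44 ± 0.29 at 2.5 to 3 h (limma adjusted p = 0.0014). The exact permutation p over both windows was 0.0556, the smallest possible. By whole regions the late difference was -1.32 (limma adjusted p = 0.052).

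COX4 (2L, 19958713 to 19960065) encodes a large nuclear subunit of cytochrome c oxidase. Its gene-end peaks measured 874 and 842 bp in WT at 2.5 to 3 h, from 72 and 63 bp outside the lower end to 801 and 778 bp inside the gene. The mutant libraries held short peaks of 173 and 222 bp that overlapped this stretch, 415 to 587 bp and 625 to 846 bp inside the gene. In both WT libraries of 1 to 1.5 h, peaks of 440 and 312 bp likewise lay within the gene, as did one of 273 bp in the second mutant library. The gene end itself was covered in the WT libraries of 2.5 to 3 h and in no other library. The difference was -3.26 ± 0.098 (limma adjusted p = 0.0002), and by whole regions -1.69 (limma adjusted p = 0.22). COX4 entered the gene-end test only through the WT libraries of 2.5 to 3 h. All others hold the same value without a peak, so the error of 0.098 is too small.

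The duplicate ATPsynbetaL (3L, 16097834 to 16100088) had peaks of 275 and 247 bp beyond its higher end in WT at 2.5 to 3 h, shared with the end of IleRS-m. No other library had a gene-end peak, and no mutant peak overlapped the WT ones (-1.85 ± 0.10, limma adjusted p = 0.0004). Like COX4, it entered the test only through these WT libraries, so this error is too small. ATPsynbetaL was the only member lost at 2.5 to 3 h under all 5 other definitions of a gene-end peak. UQCR-11, the gene of the hinge subunit of complex III, had 169 and 163 bp in WT and none in the mutant. ATPsynE, a membrane subunit of the ATP synthase, had 681 and 263 bp at its ends in WT and none in the mutant, while its regions still held 428 and 446 bp of mutant peaks against 681 and 703 bp in WT.

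**Figure D4:**
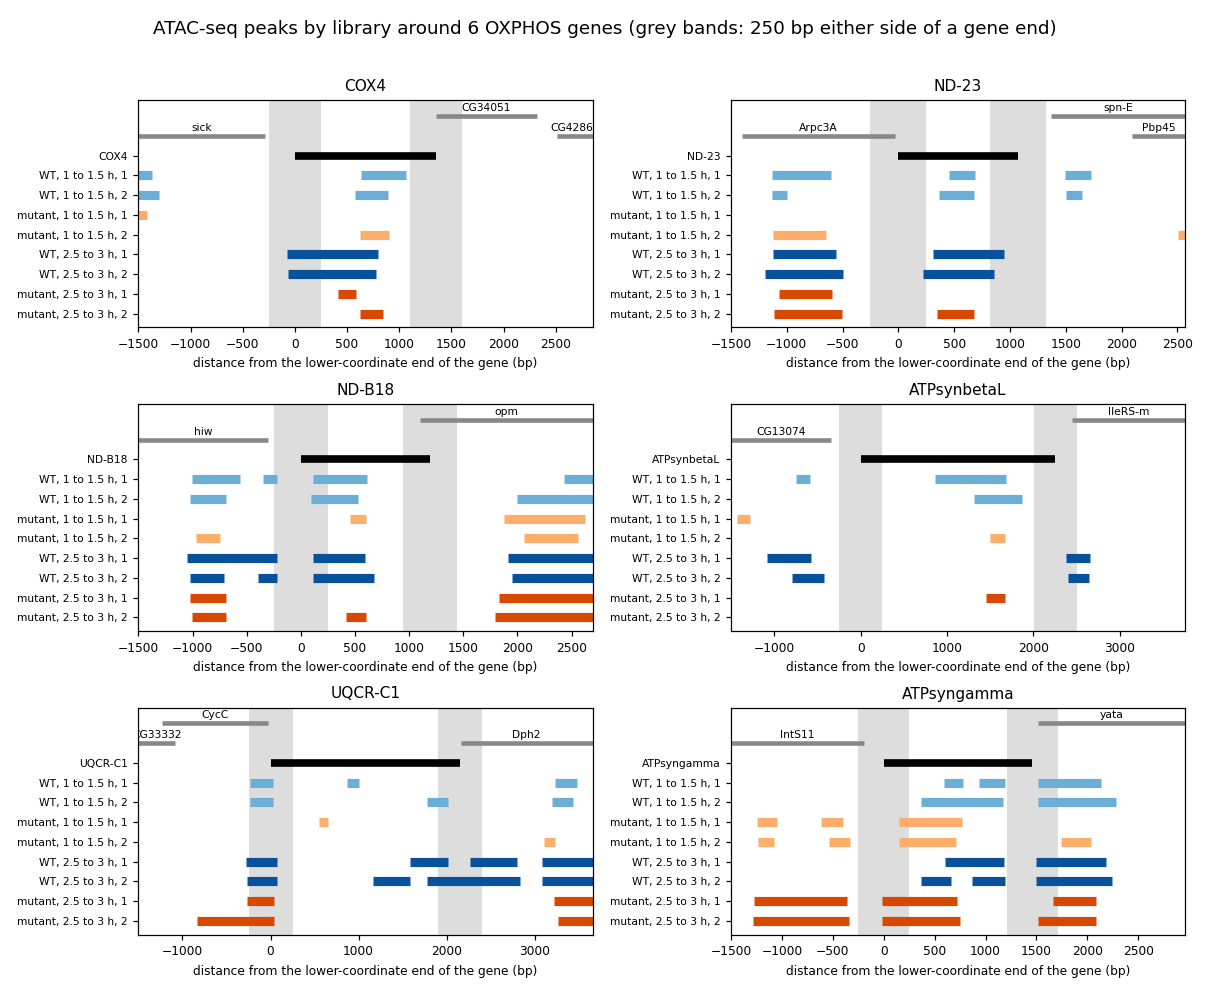
Peaks of each of the 8 libraries (coloured bars, vertical axis) around 6 members, as distance in bp from the lower-coordinate end of the gene (horizontal axis), with the member in black, neighbouring protein-coding genes in dark grey and the 250 bp windows as pale bands. At COX4 the mutant peaks of 2.5 to 3 h lie between the bands. At ATPsyngamma all 4 mutant libraries have a peak that reaches the lower band, while the overlapping WT peaks begin beyond it, inside the gene.

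At 4 members each of the WT libraries of 2.5 to 3 h had a gene-end peak and none of the other 6 did. They were COX4, ND-23, ND-75 and ATPsynbetaL (5.0%, against 1.30% of all genes). Only ND-75 and ATPsynbetaL kept this pattern when whole regions were counted. The loss in the later mutant held at ND-75 under 2 of the 5 other definitions of a gene-end peak, and at ATPsynbetaL under all 5. ND-75 and ND-23 belong to complex I, COX4 to complex IV and ATPsynbetaL to complex V, and no chromosome arm holds more than 1 of them.

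By limma, 5 members were narrower at 2.5 to 3 h, where 7.31% of all genes were, namely ND-B18, COX4, ND-23, ATPsynbetaL and ND-75. All 5 are among the members lost in this window, so they add no result beside the loss. With no gene-end peak in either mutant library, their fitted errors are too small. Another 2 were wider, ND-B17 and ATPsyngamma, where 3.14% were. The median difference was -0.37 over the members and -0.15 over all genes, with a shift of -0.13 in the genes called everywhere. By whole regions ATPsynbetaL and ND-75 were narrower and ND-51L2 was wider, 2 and 1 members beside 4.42% and 2.79% of genes. Among the 21 members called in all 8 libraries, none was narrower and 2 were wider, beside 4.47% and 2.56% of such genes. Without the second mutant library of this window 14 members were lost and 11 were narrower, and without the first or second WT library 1 and 2 were narrower. The 2 wider members became 0 or 1 when any library was left out other than the 2 of early WT.

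Of the 41 members called in all 4 libraries of 2.5 to 3 h, 22 had both mutant widths below both WT widths (44.3% of such genes) and 3 had both above (15% of such genes). Among the 22, UQCR-C1 measured 1308 and 1399 bp in WT and 304 and 875 bp in the mutant. Its lower end, shared with CycC, was covered in all 4 libraries. Its higher end, shared with Dph2, had peaks within 250 bp in both WT libraries, up to 1059 bp wide, and in no mutant library. The difference in summed width did not pass the test, and the exact permutation p over both windows was 0.0556.

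ND-B17 (2L, 15749319 to 15751078), homologous to NDUFB6 of the membrane arm, had higher mutant than WT widths in both windows. Its peaks measured 578 and 426 bp in WT and 670 and 644 bp in the mutant at 1 to 1.5 h, then 387 and 348 bp in WT and 712 and 682 bp in the mutant. The edge at the gene end lay between 15751208 and 15751224 in all 8 libraries, and the widths differed at the edge inside the gene. The difference passed at 2.5 to 3 h (0.77 ± 0.16, limma adjusted p = 0.041) and just missed the threshold by whole regions (limma adjusted p = 0.051). No other gene had an end at this peak.

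ATPsyngamma (3R, 29747704 to 29749163), the central stalk of the ATP synthase, is the neighbour of IntS11, with 190 bp between the 2 genes. It was called in all 8 libraries. The gene-end peaks of WT lay at the higher end only, shared with yata, and measured 618, 761, 696 and 749 bp. In the mutant a peak that began between 29747687 and 29747852 lay at the lower end, beside IntS11, in 4 of 4 libraries. No WT peak came within 250 bp of that end. Each WT library had a peak inside the gene that overlapped these mutant peaks, beginning 363 to 600 bp from the lower end. The later mutant libraries also had peaks of 425 and 565 bp at the higher end. Its summed width was thus 1161 and 1327 bp in the later mutant libraries (0.71 ± 0.15, limma adjusted p = 0.043), and by whole regions the difference was -0.085 (limma adjusted p = 0.98). The IntS11 locus itself differed between genotypes, with WT peaks within 29745279 to 29745833 that no mutant library had. In the other direction, each mutant library had peaks within 29746418 to 29747371, inside IntS11, where no WT library had one. The labels do not describe the mutant locus, so a change of the sequence there and a change of accessibility cannot be told apart.

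**Figure D5:**
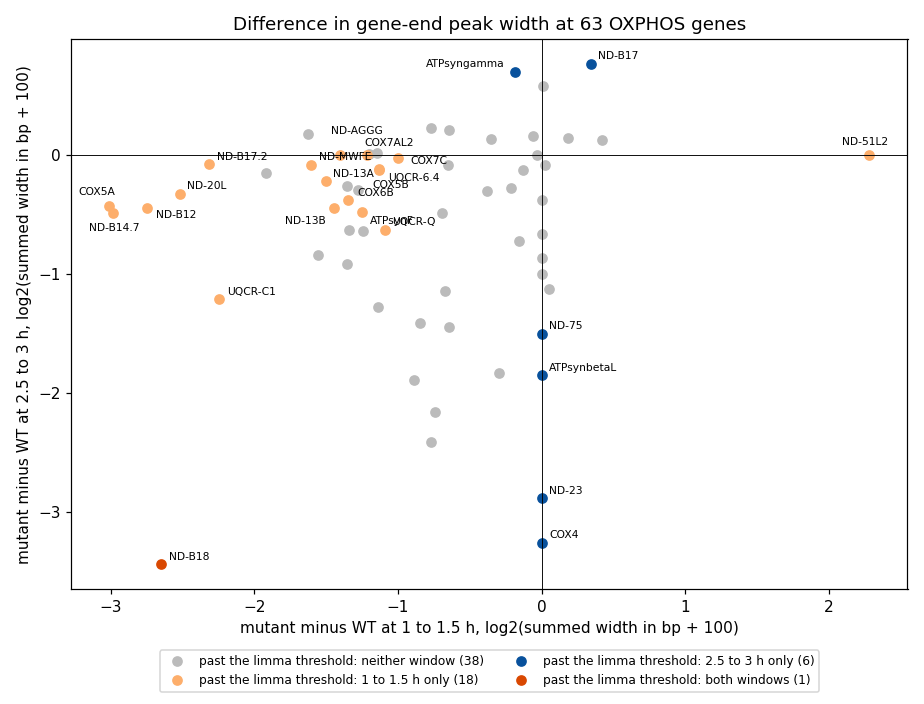
Mutant minus WT difference in log2(summed width + 100 bp) for the 63 tested members at 1 to 1.5 h (horizontal axis) and 2.5 to 3 h (vertical axis), coloured by the window in which limma gave an adjusted p under 0.05. ND-B18 was the 1 member past the threshold in both windows, 18 passed at 1 to 1.5 h only and 6 at 2.5 to 3 h only.

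From 1 to 1.5 h to 2.5 to 3 h, more members were wider than narrower in each genotype, though not in the mutant with the libraries centred. In WT, 8 of the 25 members not called early were called in both later libraries (9.05% over all genes). They were ND-75, ND-23, ND-B8, ND-B15, ND-42, COX4, COX7AL and ATPsynbetaL. By whole regions 3 of 19 were gained, ND-75, ND-42 and ATPsynbetaL (5.92% over all genes). The regions of ND-23, ND-B8, ND-B15 and COX4 already held peaks in both early WT libraries, and that of COX7AL in the first. By gene-end calls another 2 of 42, ND-AGGG and COX7AL2, were lost (8.53% over all genes). By limma 11 members were wider later and 2 narrower, beside 13.3% and 4.72% of all genes. The largest rise was at ND-B15 (2R, 14756516 to 14757072), an accessory complex I gene, from no gene-end peak to 1110 and 1266 bp (3.68 ± 0.22, limma adjusted p = 0.0004). Its region held 450 and 397 bp in the early WT libraries, and by whole regions the difference was 1.30 (limma adjusted p = 0.0026). ND-19, homologous to NDUFA8, widened from 168 and 149 bp to 1598 and 1627 bp (2.73 ± 0.26, limma adjusted p = 0.0017), and its WT and mutant values were close in the later window, at 1599 and 1962 bp in the mutant.

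In the mutant, 10 of 40 members were gained over time (14% over all genes), or 8 of 32 by whole regions (10.8%), and 2 of 24 were lost, ND-51L2 and ND-MLRQ (3.7% over all genes). By limma 26 were wider later and 1 narrower, beside 37.9% and 0.941% of all genes, and genes called everywhere shifted by 1.01 on the log2 scale in the mutant and by 0.36 in WT. With the libraries centred, 6 members were wider and 13 narrower in the mutant, beside 1081 and 1230 of 7971 genes. In WT 8 were wider and 4 narrower, beside 696 and 523 genes. The centred counts were not limited to members with a peak in the libraries compared. Among the 10 gained were ND-B15, ND-B17.2, ND-13A, ND-B14.7, ND-20L and UQCR-C1. The last 5 of these are members whose peaks were lost in the mutant at 1 to 1.5 h. At ND-B17.2 the gained peaks were not the lost ones. The early WT peaks lay at its higher end and the later mutant peaks at its lower end. The members changed over time were 8 and 5 instead of 13 in WT without the first and second later WT library, and 17 instead of 27 in the mutant without the second later mutant library.

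The difference between mutant and WT itself differed between windows at 15 members by limma. It was more negative at 2.5 to 3 h at 5 members (4% of all genes) and less negative or more positive at 10 (17.4% of all genes). The 5 were COX4, ND-23, ATPsynbetaL, ND-75 and ND-51L2. The first 4 had no gene-end peak in either genotype at 1 to 1.5 h. Each of the 5 was called in the libraries of a single group only and entered the test through that group alone. Their fitted errors are too small. Counted by whole regions, 12 members passed in place of 15, beside 18.8% of genes. Without the first WT library of 2.5 to 3 h 8 passed.

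Of the 21 duplicates, 12 had a peak in any library and 9 had none, beside 55 and 4 of the other 59 members. As shares, 42.9% of the duplicates and 6.78% of the other members had none, beside 34.6% of all protein-coding genes. The duplicates were thus nearer to that background than the other members, and neither share was tested against it. The 4 others without a peak were ND-B22, ATPsynCF6, ATPsynO and ATPsyndelta. COX4L was the 1 duplicate called in all 8 libraries, at 446 and 444 bp in WT and 359 and 380 bp in the mutant at 1 to 1.5 h, then 605 and 752 bp in WT and 516 and 570 bp in the mutant. The mutant values were below the WT values of each window, and neither difference passed the limma test. COX4L thus held a gene-end peak in every library, whereas COX4 held one in 2. COX4L spans 730 bp and COX4 1353 bp, so the 250 bp windows cover a larger part of COX4L. By whole regions COX4 also had peaks in the other libraries, except the first mutant library of 1 to 1.5 h. These were 440 and 312 bp in early WT, 273 bp in the second early mutant library, and 173 and 222 bp in the later mutant.

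ND-51L2 (2R, 15296764 to 15298329), a duplicate of the NADH-binding subunit gene ND-51, was called in both mutant libraries of 1 to 1.5 h, at 496 and 297 bp, and in no other library. The WT libraries of that window had peaks of 435 and 486 bp in the same region, too far from the gene end to count. Later the region held 711 and 866 bp in the mutant and no peak in WT. ND-51 itself had peaks of 546 and 734 bp in WT and 221 and 247 bp in the mutant at 2.5 to 3 h. COX7AL appeared at 2.5 to 3 h in both genotypes, at 395 and 809 bp in WT and 420 and 161 bp in the mutant. UQCR-6.4L, COX6AL2 and COX5BL were called in 6, 6 and 3 libraries with widths of 135 to 388 bp. COX6AL, ND-24L and ND-B14.5AL were each called in 1 library only.

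The widest members called in all 8 libraries were ND-B12 (mean over libraries 1148 bp), COX6B (1128 bp), ND-19 (952 bp) and ND-MWFE (928 bp). The narrowest were ATPsynbeta (333 bp), UQCR-14 (347 bp), UQCR-6.4 (385 bp) and ATPsynD (426 bp). Peaks at COX6B, which lie at its higher end, where Rpp20 also ends or starts, measured 1459 and 1121 bp in WT and 469 and 418 bp in the mutant at 1 to 1.5 h (-1.35 ± 0.30, limma adjusted p = 0.024). With 1 library left out the difference ran from -1.52 to -1.17 and did not pass in 6 of 8 fits. Later they measured 1574 and 1530 bp in WT and 854 and 1595 bp in the mutant, which overlapped. UQCR-14, the gene of a small complex III subunit, stayed between 124 and 279 bp in all 4 libraries of 1 to 1.5 h and between 400 and 624 bp in those of 2.5 to 3 h.

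Over all genes, loss was more frequent where WT peaks were narrow. With genes in 4 classes by WT width, 38.0% of the narrowest class and 12.1% of the widest were lost at 1 to 1.5 h, and the members lost were 4 of 13 and 0 of 8 in those classes. In the wider 3 classes together, 5 of 29 members were lost at 1 to 1.5 h, beside 18.3% of genes. In the later window 20.0% were lost in the narrowest class and 2.08% in the widest, and the members lost were 4 of 15 and 1 of 14. The members lost in the wider 3 of those later classes were ATPsynE, ND-23, COX4 and ND-B18, 4 of 40, beside 222 of 4749 genes (4.67%). None of these 4 was lost by whole regions. The median WT width was 451.25 bp for members and 490.25 bp for genes at 1 to 1.5 h, and 679.5 and 655 bp at 2.5 to 3 h.

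Other genes of the same metabolism were taken from 3 lists, read beside the same backgrounds of 23.2% lost and 30.9% narrower at 1 to 1.5 h, and 8.51% lost and 3.39% gained at 2.5 to 3 h. Of 15 further electron transport and ATP synthase genes with other names, 1 of 8 lost its peak at 1 to 1.5 h (the cytochrome c gene Cyt-c-d) and none of 10 did at 2.5 to 3 h, when 1, sun, was gained. By limma 3 of 11 were narrower at 1 to 1.5 h and none was wider. Of 19 tricarboxylic acid cycle genes, 2 of 8 lost their peak at 1 to 1.5 h (Idh3g and Pdha) and 1 of 9 at 2.5 to 3 h (Idh3g), and 5 of 12 were narrower at 1 to 1.5 h. Idh3g, a subunit of isocitrate dehydrogenase, had 425 and 305 bp in WT at 1 to 1.5 h and 908 and 446 bp at 2.5 to 3 h, and no gene-end peak in the mutant. Of 13 regulators of mitochondrial genes, 3 of 10 lost their peak at 1 to 1.5 h (Ets97D, TFAM and PolrMT) and none at 2.5 to 3 h, and 5 of 11 were narrower at 1 to 1.5 h. TFAM, which packages mitochondrial DNA, had 956 and 756 bp in WT and none in the mutant at 1 to 1.5 h, then 998 and 806 bp in WT and 963 and 862 bp in the mutant.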

How the data were processed

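The authors deposited 1 peak list per library, with chromosome, start and end (3 columns, and no other values such as a score). Per the submitters' processing notes, the tools included deepTools 3.5.1, MACS2 2.2.7.1, SAMtools 1.18, Bowtie2 2.2.5 and Trimmomatic 0.39, with the dm6 build. No source used here gives their settings or any shift of reads for the transposase. No count model or interval was therefore possible.

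Gene spans came from the RefSeq table of Release 6, without strand. Coordinates are 1-based. A gene was lost if called in both WT (or earlier) libraries but in no mutant (or later) one, gained if the opposite held, and kept if called in all 4. Widths were tested with limma 3.58.1 (R 4.3.3) on log2(summed width + 100 bp) for genes called in at least 2 libraries, with 4 group means, 4 residual degrees of freedom and Benjamini-Hochberg adjustment over all genes tested. Differences without a unit are on this log2 scale, which understates change at narrow peaks. The test was checked on data simulated from genes called in all 8 libraries. That check does not cover genes without a peak in a group. Members called in 1 library or none (17 of 80) were not tested. Named were members lost or gained, those past the limma threshold (up to 8 per direction), the 4 widest and narrowest called everywhere, ATPsyngamma and the duplicates with a peak. Other genes, and members named for their change over time, were chosen after their values were seen. The members, lists and tests were chosen with earlier results of these data known. Alternatives were a 500 bp window, peaks of at least 200 bp, common limits of 160 bp, equal list lengths, 100 bp of the window covered, the widest peak only, pseudocounts of 50 and 200 bp, centring, other minimum numbers of libraries, a replicate block and each library left out. Sequences were not used here.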

Additional observations from a re-analysis of the deposited data

Results flagged for a closer look

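The difference between mutant and WT in log2(summed width + 100 bp) differed between the 2 windows at 15 members by limma's test of the difference itself (late minus early). At COX4 it was -3.26, at ND-23 -2.89, at ATPsynbetaL -1.85 and at ND-75 -1.50, and these 4 genes had no gene-end peak in either genotype at 1 to 1.5 h. At ND-51L2 it was -2.28, where the early mutant libraries alone had a gene-end peak. Positive values, where narrowing or loss at 1 to 1.5 h was smaller or absent later, were 2.50 at ND-B14.7, 2.30 at ND-B12, 2.24 at ND-B17.2, 2.2 at ND-20L, 1.53 at ND-MWFE, 1.28 at ND-13A and 0.98 at COX7C. At ND-B17.2 the early WT peaks lay at the higher end, and the later peaks of both genotypes at the lower end. ND-AGGG (1.40) and COX7AL2 (1.21) were called at 1 to 1.5 h in WT only and in no library later. These 2, ND-51L2 and the 4 genes named first were called in the libraries of a single group only. They entered the test through that group alone, so each value is that group's difference from libraries without a peak. Their fitted errors are too small. ATPsyngamma (0.89) lies next to IntS11 and only its mutant libraries had a peak within 250 bp of the lower end. With libraries centred, 8 members passed in place of 15. By whole regions and with a 500 bp window, ND-51L2 turned to 3.35 and 3.72 and ND-23 to 0.069 and 0.19. The mutant against WT difference by whole regions was -1.29 early and -1.69 late at COX4. It was -0.32 and -0.076 at ND-B17.2, so the windows were close at both genes. At ND-B12 it was -1.30 early and -0.14 late.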

How the results depend on the processing

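Over 81 changes of width at named members and all alternatives, 1637 values were computed. Of these, 1334 kept their direction and their side of the threshold, 283 no longer passed it and 20 reversed. The cause of a change was not tested except where the setting's construction shows it, as with fewer genes or libraries. Counts of members in this section stand without the share over all genes under the same setting. A change at the members is thus not separated there from a change over all genes.

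With the libraries centred, 7 members were narrower and 8 wider at 1 to 1.5 h, and 8 differed between windows. Counting only genes with a peak in the 4 libraries compared, a limit chosen after the data were seen, 7 were narrower and 4 wider, since the other 4 carried the shift alone. Centring reversed the change over time in the mutant at COX7C (-0.43), ATPsynC (-0.35), ND-13B (-0.13), COX8 (-0.057), UQCR-Q (-0.053) and ATPsyngamma (-0.052). With whole regions, chosen after the data were seen, no member was gained or wider at 1 to 1.5 h. In the later window 3 were lost, 1 gained, 2 narrower and 1 wider. ATPsyngamma then turned to -0.085 at 2.5 to 3 h. ND-51L2 turned to -0.20 at 1 to 1.5 h, 0.86 over time in the mutant and 3.35 between windows, and ND-23 to 0.069 between windows. With a 500 bp window none was gained or wider early, and later 4 were lost, 2 gained and 1 narrower, while 7 differed between windows. ND-51L2 was then -0.20, 1.23 and 3.72 in the same 3 comparisons, ND-23 0.19 between windows, and ATPsynD -0.20 over time in WT.

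With equal list lengths 5 members were lost, 3 gained and 3 wider at 1 to 1.5 h, and ND-13A turned to -0.076 between windows, as it did with peaks of at least 200 bp (-0.076). With 100 bp of the window covered, 0 were gained and 0 wider early, ND-B17.2 turned to -0.38 over time in WT and ND-20L to -1.54 between windows. Counting separate regions, 2 were gained at 2.5 to 3 h. Among members called in all 8 libraries, also chosen after the data were seen, 9 were narrower and 0 wider early and 0 narrower later, 5 changed over time in WT and 17 in the mutant, and 5 differed between windows. With a peak in at least 4 libraries, 0 were wider early, 1 narrower and 0 wider later, 7 changed over time in WT and 7 differed between windows. The wider members at 2.5 to 3 h were 0 with a minimum of 1 library, and 1 each with the widest peak only, with 50 bp added and without members within 2 kb of IntS11.

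The replicate numbers did not pair the samples (correlations of deviations from -0.001 to 0.026 over 7971 genes). With the replicate number as a block, 18 members were narrower and 1 wider early, 5 narrower and 0 wider later, 12 changed over time in WT and 22 in the mutant, and 13 differed between windows.

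With 1 library left out, the lone library of its group was assumed to vary like the others. The lost members were then 9 to 17 early and 8 to 14 later, and the gained 1 to 2 and 0 to 1. Narrower members were 12 to 19 early and 1 to 11 later, and wider members 0 to 1 and 0 to 2. Between 5 and 15 changed over time in WT, 17 to 26 in the mutant, and 8 to 18 differed between windows. With peak positions alone, a loss below the caller's threshold and a loss of depth cannot be told apart.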
